A study of Mus musculus with 2 samples.

Results

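Imprinted genes, expressed mainly or only from the chromosome of one parent, were followed through the cells of the mouse lateral hypothalamic area. The members were 35 listed imprinted genes, and 34 of them had a row among the 28692 genes measured. Rian was not analysed here. The rule for a member is its name on that list and uses no measured value, though the list was drawn up with earlier results of these data known. Each was described across cell classes, across neurons sorted by their transmitter genes, and across neuron subtypes. The tissue came from C57BL/6 mice at postnatal day 30, with no treatment, and was dissected from brain slices 225 µm thick. One library pooled the cells of 3 animals labelled male and the other those of 2 animals labelled female, all 5 being littermates. Single cells were captured in droplets with 10x Genomics Chromium v2 chemistry, in which a unique molecular identifier (UMI) marks every captured transcript near its 3′ end. Levels (CPM) are UMIs scaled to 1000000 UMIs of a cell group. Wherever a pair of values is given, the library labelled male comes first.

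Imprinting is set by DNA methylation that differs between egg and sperm and is kept in the body's cells, so that a control region acts on a whole cluster of neighbouring genes. Many imprinted genes are known for their part in growth, feeding and the hypothalamus: loss of the paternal Prader-Willi region causes overeating in people, loss of maternal Ube3a causes Angelman syndrome, and mice without Magel2 or Peg3 have altered feeding or maternal behaviour. The assay reads no parental allele, so all values are totals of both chromosomes. Which allele a gene uses is given below as background only.

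Promoter sequences are shown for a few genes that the results return to, picked after their values were seen: Nnat and Dlk1, which set peptide neurons apart, Asb4, which varied most over subtypes, Meg3, the most abundant, and Peg3 with Usp29, which share a start region. Other genes that differed as much or more, such as Plagl1, Peg10, Igf2 and Cdkn1c, are not shown. The sequences are the 250 bases before the start of transcription in the RefSeq table of GRCm38.p6, which held 29 of the 34 genes, on the plus strand. Capitals mark matches to any of 5 short motifs searched on both strands. The first is the TATA box, searched as TATAAA. The next is the CCAAT box, by the letters of its name. The GC box was searched as GGGCGG, the cAMP response element as TGACGTCA and the core of the YY1 site as AAGATGGC.
Nnat, chr2:157559828-157560077: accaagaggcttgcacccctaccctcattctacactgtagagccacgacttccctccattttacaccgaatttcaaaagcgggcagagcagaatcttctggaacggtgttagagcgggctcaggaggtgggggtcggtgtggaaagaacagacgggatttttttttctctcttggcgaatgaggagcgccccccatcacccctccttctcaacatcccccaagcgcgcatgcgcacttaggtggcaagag
Dlk1, chr12:109452573-109452822: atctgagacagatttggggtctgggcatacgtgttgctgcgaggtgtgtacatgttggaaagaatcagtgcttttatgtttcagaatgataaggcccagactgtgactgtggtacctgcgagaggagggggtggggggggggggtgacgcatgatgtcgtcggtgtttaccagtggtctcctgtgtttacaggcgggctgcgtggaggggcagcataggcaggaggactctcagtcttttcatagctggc
Asb4, chr6:5383136-5383385: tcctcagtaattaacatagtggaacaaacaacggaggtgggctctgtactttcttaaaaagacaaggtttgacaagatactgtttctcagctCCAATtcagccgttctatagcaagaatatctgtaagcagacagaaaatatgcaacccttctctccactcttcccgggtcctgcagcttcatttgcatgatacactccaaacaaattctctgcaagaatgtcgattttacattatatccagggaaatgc
Meg3, chr12:109540746-109540995: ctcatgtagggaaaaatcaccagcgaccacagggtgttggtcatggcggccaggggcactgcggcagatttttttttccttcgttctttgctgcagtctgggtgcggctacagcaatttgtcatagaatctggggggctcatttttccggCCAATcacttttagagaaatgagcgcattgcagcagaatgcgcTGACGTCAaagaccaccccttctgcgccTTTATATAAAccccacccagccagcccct
Peg3 and Usp29, chr7:6730432-6730577: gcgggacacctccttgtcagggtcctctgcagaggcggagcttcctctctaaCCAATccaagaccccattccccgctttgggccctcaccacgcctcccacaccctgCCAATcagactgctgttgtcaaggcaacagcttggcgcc
The windows of Nnat and Dlk1 held none of the 5 motifs. Asb4 held 1 CCAAT. Meg3 held CCAAT, TGACGTCA and, near the start, TTTATATAAA, in which TATAAA matches both strands with overlap. Of 32817 such windows of all genes, 12.4% held TATAAA, 33.8% CCAAT, 32.7% GGGCGG, 1.55% TGACGTCA and 1.56% AAGATGGC. The last line is the whole stretch of 146 bases between the starts of Peg3 and Usp29, which are transcribed away from each other, and is shown because both genes start from it. It held 2 CCAAT, and 24.0% of windows of 146 bases held at least 1. These are matches of letters and no evidence of binding.

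Meg3 and Mirg are long non-coding RNAs of the Dlk1-Dio3 region on chromosome 12 and host microRNAs, 3 mature forms in Meg3 and 26 in Mirg in the RefSeq table. The 26 forms in Mirg carried 25 different seeds (bases 2 to 8, in capitals below). miR-453 and miR-496a-5p share theirs, GGUUGCC. The first of the 4 lies in Meg3 and the others in Mirg. MicroRNAs themselves are not measured by this assay.
miR-770-5p: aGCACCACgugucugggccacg
miR-382-5p: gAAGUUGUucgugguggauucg
miR-453: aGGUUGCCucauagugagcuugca
miR-496a-5p: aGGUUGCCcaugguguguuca

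The libraries held 3439 and 3793 barcodes with 23151801 and 27437142 UMIs, and 3186 and 3517 cells were kept. Of the kept cells, 2037 and 2264 were neuron-like, 608 and 593 mature oligodendrocyte-like, and the other named classes held between 9 and 183 cells in a library. Mural-like cells (9 and 33) were too few for a test, and fibroblast-like cells (23 and 34) were few. Both libraries went against their sex label: Xist stood at 713 and 0.0989 CPM and the Y-linked Ddx3y at 0 and 167 CPM in neuron-like cells. The labels are kept here only as names of the libraries, and 18 barcodes occurred in both. Since each library is 1 pool of animals, p-values speak only for these 2 pools. They rest largely on a spread shared over all genes and not on that of the gene alone. In the comparisons of neurons by transmitter or peptide genes each gene has 1 residual degree of freedom. The shared spread counts there for between 25.7 and 98.5. Across inhibitory and excitatory subtypes the residual degrees of freedom are 17 and 18, and the shared spread counts for 105.8 and 104.6.

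Imprinted transcripts made up a larger part of the UMIs of neurons than of any other class. Of all UMIs, 2.78% and 2.90% came from the members in neuron-like cells, against 0.239% and 0.246% in mature oligodendrocyte-like and 0.583% and 0.623% in astrocyte-like cells. The next highest share was that of mural-like cells, 0.954% and 2.04%. Limits from RNA of broken cells are given below. Meg3 alone gave 1.51% and 1.65% of neuronal UMIs. Without it the neuronal share was 1.27% and 1.25%, and the next highest was that of fibroblast-like cells with 0.656% and 0.857%. In the comparison of neuron-like cells with the mean of the 7 tested non-neuronal classes (edgeR's quasi-likelihood test with the library as a block, Benjamini-Hochberg adjustment over 10578 genes, called at an adjusted p under 0.05), 27 of 32 tested members were called higher in neurons, where 29.1% of all genes were. Another 4 were called lower, where 30.8% of all genes were, so that 31 of 32 were called against 60.0%. The members' median difference was 2.00 on the log2 scale and that of all genes -0.11. All 32 went in the same direction in both libraries. The classes were drawn from these same cells by other genes, the members having been kept out of clustering. Mkrn3 and H19 were not tested because of their low counts.

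**Figure D1:**
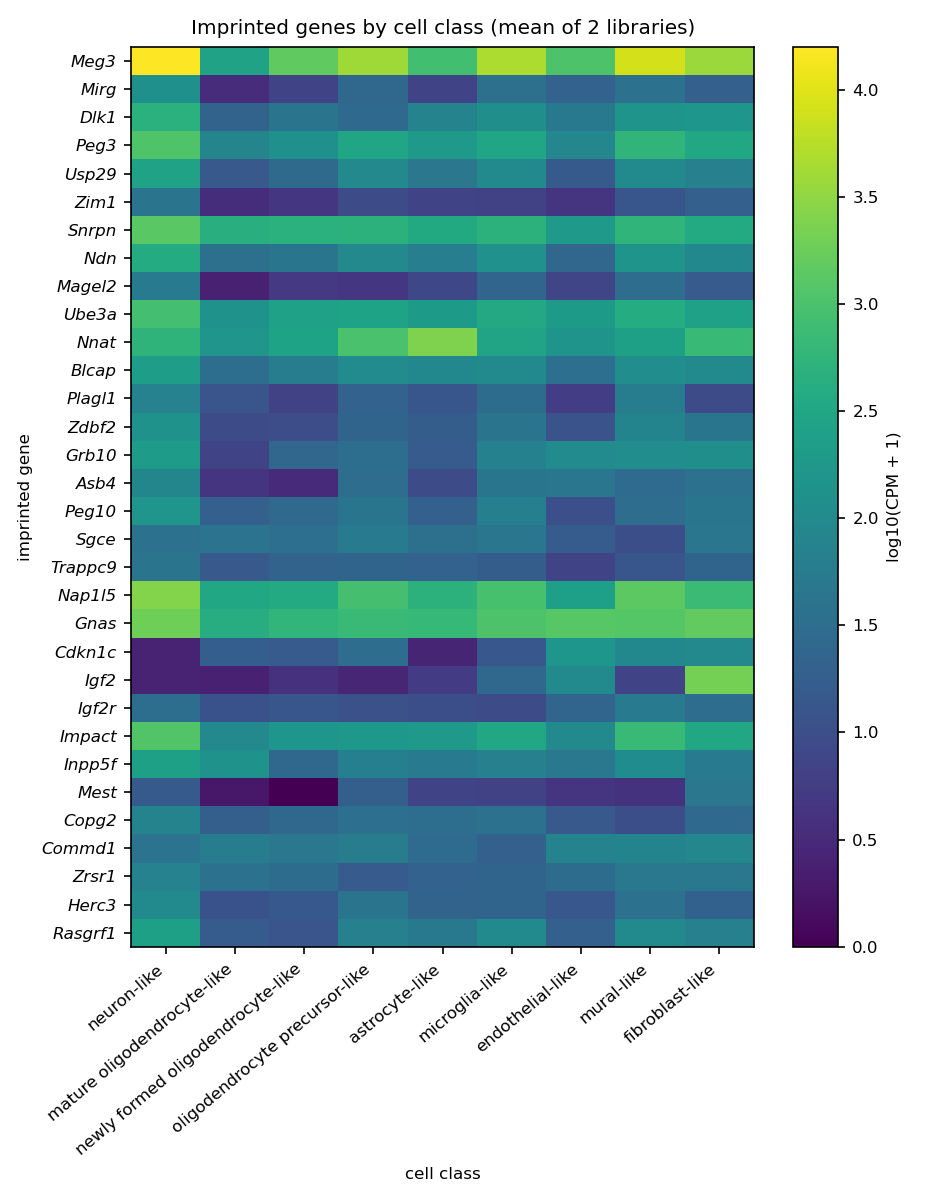
Mean level of 32 imprinted genes in 9 cell classes, as log10(CPM + 1), with genes ordered by genomic region and columns giving the class. Most rows are brightest in the neuron-like column, while Nnat peaks in astrocyte-like, Igf2 in fibroblast-like and Cdkn1c in endothelial-like cells.

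Among members higher in neurons, those of the Dlk1-Dio3 region had the largest fitted differences. The levels of the other classes that enter them are set beside free RNA below. Meg3 (chromosome 12, 109541001-109571726) stood at 15074 and 16501 CPM in neuron-like and at 271 and 255 CPM in mature oligodendrocyte-like cells. Its log2 difference from the mean of the classes was 2.93 ± 0.21 (SE, adjusted p = 1.80e-15). Mirg, its neighbour, stood at 117 and 134 CPM in neuron-like cells and differed by 2.99 ± 0.18 (adjusted p = 4.78e-18). Dlk1, the paternally expressed gene of the region, encodes a Delta-like membrane protein. It stood at 481 and 484 CPM in neuron-like and 137 and 184 CPM in fibroblast-like cells, its next highest tested class, and differed by 2.72 ± 0.14 (3.38 and 2.70 in the single libraries). Here and below, values in the single libraries are differences of log2 CPM and not fitted ones. Both can therefore lie on the same side of the fitted difference.

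Peg3, a zinc finger protein gene on chromosome 7, and Usp29, a ubiquitin peptidase gene, start back to back at the stretch shown above. Peg3 stood at 1046 and 1139 CPM in neuron-like cells and Usp29 at 247 and 277 CPM. Both differed from the other classes by nearly the same amount, 2.25 ± 0.13 and 2.34 ± 0.13 on the log2 scale. Zim1, the maternally expressed zinc finger gene beside them, differed by 2.50 ± 0.24 (3.28 and 2.87 in the single libraries). In the Prader-Willi and Angelman region, also on chromosome 7, the MAGE family genes Ndn and Magel2 differed by 2.31 ± 0.14 and 2.65 ± 0.26. Magel2 had few UMIs in the smaller classes, and its difference was 4.91 and 2.97 in the single libraries. Snrpn, which encodes the splicing protein SmN, had the smallest gap of the region with 1.42 ± 0.14. Mature oligodendrocyte-like cells held 428 and 441 CPM of it against 1388 and 1321 CPM in neuron-like cells. Ube3a, a ubiquitin ligase gene whose paternal copy is silent in neurons, stood at 895 and 872 CPM there and differed by 1.57 ± 0.13. Mkrn3 was the exception of the region, though at low counts and without a test. It had 13 and 22 UMIs in neuron-like cells (0.752 and 1.09 CPM). Mature oligodendrocyte-like cells had 21 and 29 UMIs of 2712790 and 2943417 in all. Oligodendrocyte precursor-like cells stood at 15.9 and 11.1 CPM, which is only a few UMIs of 188520 and 271129.

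Outside these clusters, the genes for the translation regulator Impact (2.31 ± 0.13), the Ras exchange factor Rasgrf1 (2.37 ± 0.13), the insulin receptor adaptor Grb10 (203 and 213 CPM in neuron-like cells) and the zinc finger proteins Zdbf2 (2.60 ± 0.17) and Plagl1 (2.34 ± 0.20) were also higher in neuron-like cells. Zdbf2 gave 3.61 and 2.89 in the single libraries, and Plagl1 2.65 and 3.25. Nap1l5, a nucleosome assembly protein gene that lies inside Herc3 on the other strand, stood at 2653 and 2558 CPM in neuron-like cells. It differed by 1.98 ± 0.13 and Herc3 by 2.02 ± 0.16 (3.48 and 2.05 in the single libraries). Asb4 and Peg10, neighbours on chromosome 6, differed by 2.16 ± 0.17 and 2.11 ± 0.13. The remaining called members, Mest, Inpp5f, Blcap, Copg2, Zrsr1, Trappc9, Igf2r and Gnas, differed by between 0.81 and 1.85. In the single libraries Mest stood at 2.46 and 1.79, Copg2 at 1.92 and 1.13 and Inpp5f at 2.26 and 1.72. Gnas encodes the stimulatory G protein alpha subunit, and endothelial-like cells held 1465 and 1139 CPM of it against 1945 and 1813 CPM in neuron-like cells.

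The other 5 tested members were not called higher in neurons, and Igf2 and Cdkn1c were nearly absent from them. Igf2, the fetal growth factor gene, stood at 1897 and 2213 CPM in fibroblast-like cells, 87.3 and 109.7 CPM in endothelial-like cells and 0.752 and 2.57 CPM in neuron-like cells. Against fibroblast-like cells the neuronal level was -10.51 ± 0.27 on the log2 scale (adjusted p = 5.22e-30). Cdkn1c, which encodes the cyclin-dependent kinase inhibitor p57, stood at 161 and 164 CPM in endothelial-like cells and 1.45 and 1.63 CPM in neuron-like cells, with -7.14 ± 0.24 between them. Against the mean of all classes Igf2 gave -3.59 ± 0.69 and Cdkn1c -4.16 ± 0.77 (-4.17 and -3.06 in the single libraries). Both belong to the growth cluster on chromosome 7 whose other listed gene, H19, had 0 UMIs in neuron-like cells. Commd1, a gene of copper and endosome handling, was lower in neurons (-0.69 ± 0.16). With cells thinned to 3000 UMIs, Commd1 (-0.63, adjusted p = 0.197) and Cdkn1c (-2.87) were not called. Sgce, which encodes epsilon-sarcoglycan, gave -0.41 ± 0.15 (adjusted p = 0.0154). That call was lost under 6 alternatives, among them leaving Meg3 and Malat1 out of the totals (-0.26, adjusted p = 0.122). Malat1, a nuclear RNA, took 100327 and 92126 CPM in mature oligodendrocyte-like and 11178 and 11195 CPM in neuron-like cells. Without both genes the median of all genes moved from -0.11 to 0.03, and the calls over all genes from 3081 higher and 3262 lower to 3620 and 2736.

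Nnat was abundant in neurons and in glia. It encodes neuronatin, a small membrane proteolipid of the endoplasmic reticulum, and stood at 2051 and 2901 CPM in astrocyte-like cells, 1050.3 and 937 CPM in oligodendrocyte precursor-like cells and 531 and 549 CPM in neuron-like cells. Both astrocyte-like values lay above all others. The difference of neurons from astrocyte-like cells was -2.57 ± 0.20 (adjusted p = 3.10e-14), from oligodendrocyte precursor-like cells -0.98 ± 0.20 and from mature oligodendrocyte-like cells 0.92 ± 0.19. Against the mean of all classes it was not called (-0.10 ± 0.15, adjusted p = 0.621). With cells thinned to 3000 UMIs it was called lower in neurons (-0.34, adjusted p = 0.00528). Blcap, the gene around it on the other strand, was higher in neurons than in astrocyte-like cells, by 0.87 ± 0.24. Inpp5f, an inositol phosphatase gene, differed within the oligodendrocyte lineage: it stood at 133 and 149.8 CPM in mature oligodendrocyte-like and 16.6 and 32.5 CPM in newly formed oligodendrocyte-like cells, with 239 and 239 CPM in neurons.

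Class by class, counts are given out of the same 32 members, with the share of all genes called in either direction and then higher and lower. Against mature oligodendrocyte-like cells, 26 members were higher and 3 lower in neurons (69.5% of all genes, 30.2% and 39.3%). Newly formed oligodendrocyte-like cells gave 26 and 1 (52.6%, 23.4% and 29.2%), and precursors 24 and 2 (33.8%, 14.6% and 19.2%). Astrocyte-like cells gave 25 and 1 (47.7%, 20.6% and 27.1%), and microglia-like cells 19 and 2 (29.5%, 12.5% and 17.0%). Endothelial-like cells gave 25 and 3 (64.1%, 27.0% and 37.1%), and fibroblast-like cells 17 and 5 (29.6%, 11.6% and 17.9%). The last comparison had the most members lower in neurons: Igf2, Cdkn1c, Mest, Commd1 and Nnat.

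RNA set free by broken cells gives UMIs in droplets of other cells, so levels in glia were set beside those of 16 genes restricted to neurons, measured the same way. In mature oligodendrocyte-like cells those 16 reached at most 11.5% and 9.61% of their level in neurons, with medians of 4.89% and 6.02%. Of the 34 members, 16 lay above that maximum in both libraries. They included Commd1, Sgce, Inpp5f, Snrpn, Nnat and Gnas. In astrocyte-like cells, 12 members lay above the reference maximum of 22.5% and 21.2%. Meg3 exceeded that maximum in neither library of any non-neuronal class. Mirg, Dlk1, Peg3, Usp29, Zim1, Ndn, Magel2, Zdbf2, Peg10, Impact, Herc3 and Rasgrf1 exceeded it in both libraries of none. The glial levels of all these genes are therefore not read as expression. Their differences from neurons given above rest on these levels, so the order of those differences is not read as graded expression either. The reference was much higher in microglia-like cells of the library labelled female, with a median of 48.9% against 11.3%. Only 3 members lay above it there in both libraries. The reference median was 11.7% and 47.5% in mural-like cells and 17.7% and 24.6% in fibroblast-like cells. How much of the member shares of UMIs in mural-like and fibroblast-like cells is free RNA was not tested.

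**Figure D2:**
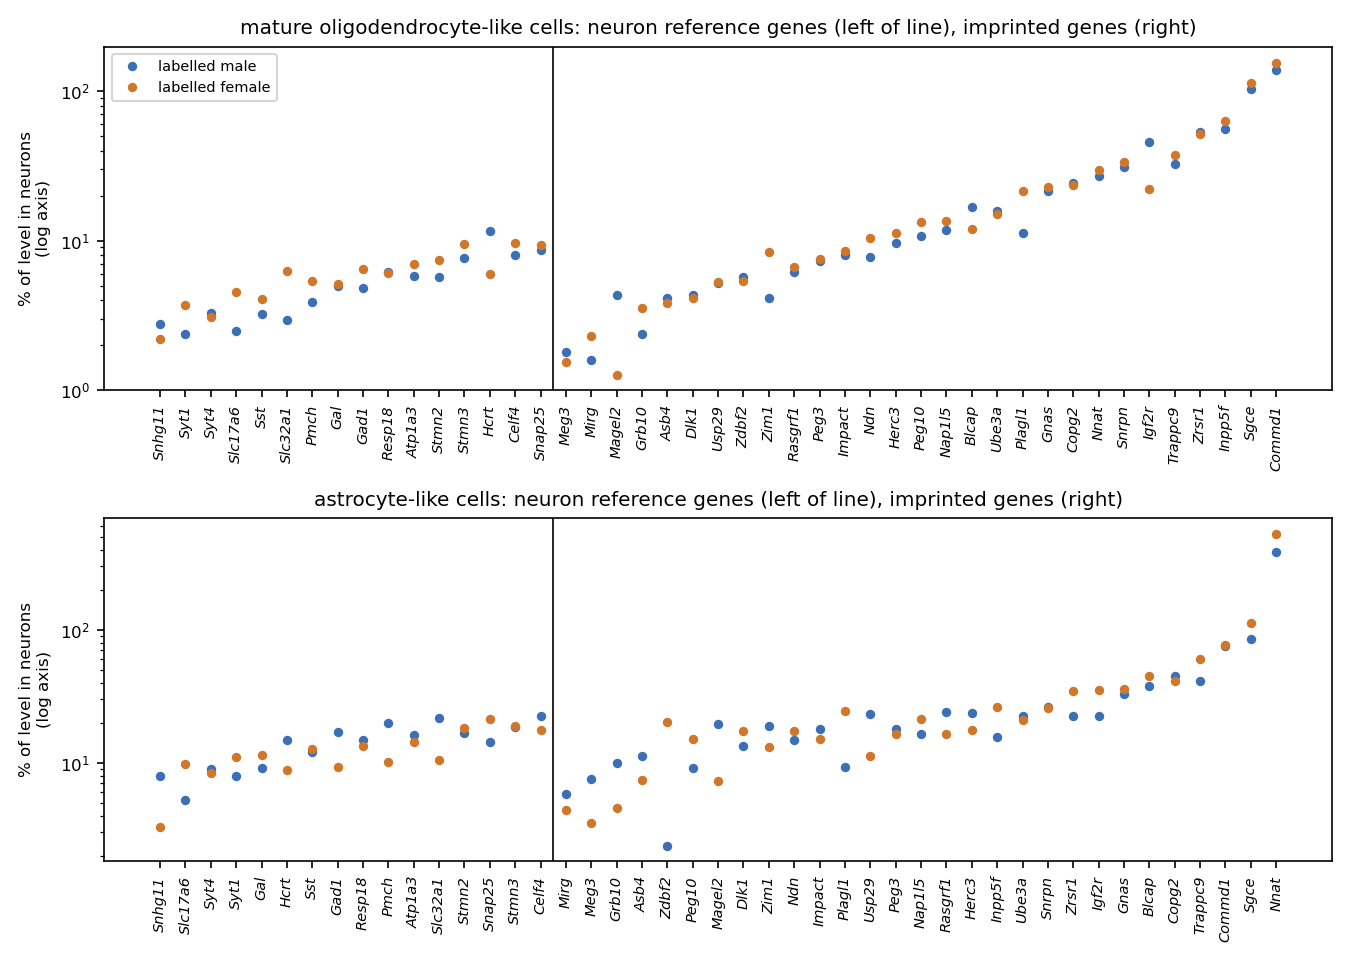
Level in mature oligodendrocyte-like cells (top) and astrocyte-like cells (bottom) as a percentage of the level in neuron-like cells, on a log axis, for 16 neuron-restricted reference genes left of the line and imprinted genes right of it. Each point is 1 library. Meg3 and Mirg sit with the reference genes, while Commd1 and Sgce in both panels and Nnat in astrocyte-like cells stand clear of them.

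Among neurons, Slc32a1 marks inhibitory and Slc17a6 excitatory cells. There were 983 and 1111 inhibitory and 710 and 782 excitatory neurons. Of 32 tested members, 13 were called between them, 7 higher in inhibitory neurons and 6 lower, where 22.9% of 13225 genes were called (10.5% higher and 12.5% lower). The members' median difference was 0.01 on the log2 scale, as was that of all genes. Nnat had by far the largest gap: 192 and 226 CPM in inhibitory and 868 and 929 CPM in excitatory neurons, a difference of -2.14 ± 0.04 (adjusted p = 3.23e-28). Plagl1, a zinc finger transcription factor gene, followed with -0.99 ± 0.07 (49.3 and 51.3 against 99.7 and 95.2 CPM). Asb4 encodes an ankyrin repeat protein of ubiquitin ligase complexes and is known from feeding neurons of the hypothalamus. It was higher in inhibitory neurons, at 123 and 94.4 against 54.0 and 64.4 CPM, by 0.82 ± 0.08. Its difference was 1.16 and 0.53 in the single libraries. Peg10, which encodes a protein derived from a retrotransposon, was higher by 0.44 ± 0.05. The other called members differed by at most 0.29: Rasgrf1, Copg2, Impact, Ube3a and Nap1l5 upward, and Blcap, Gnas, Ndn and Snrpn downward. The block for the library mattered: without it 4 members stayed called (Nnat, Plagl1, Asb4 and Peg10), where 941 of 13225 genes were called. DESeq2 also called 4, but another set: Nnat, Plagl1, Peg10 and Gnas, while Asb4 was lost (0.83, adjusted p = 0.140). It called 543 of 13559 genes. Cells thinned to 3000 UMIs kept 7 of the 13 calls and gained Meg3, where 1085 of 11540 genes were called. Peg10 was lost there (0.15, adjusted p = 0.244).

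The contrast depended on the 2 peptide populations inside the excitatory group. With Hcrt-high and Pmch-high neurons left out, 8 of 32 members were called, where 1611 of 12992 genes were. Plagl1 turned to 0.44 (adjusted p = 0.00201), Peg10 stood at 0.11 (adjusted p = 0.180), Asb4 stood at 0.44 and Nnat at -1.35. The calls on Ndn (0.11) and Ube3a (-0.00) were lost, as were those on Blcap, Copg2, Gnas and Nap1l5. Dlk1 (0.31) was called there, and Meg3 (-0.19) there and under 3 other alternatives.

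Hcrt-high neurons, with 0.3% or more of their UMIs from Hcrt, the gene of the arousal peptides orexin A and B, differed from other excitatory neurons in most members. There were 83 and 84 of them, set against 599 and 685 other excitatory neurons below that limit for both Hcrt and Pmch. The limit was set on all neurons, so 63 and 62 of these cells lay in the excitatory gate and the rest had both transporters (5 and 8), neither (14 and 12) or Slc32a1 alone (1 and 2). They were deeper, with medians of 16101 and 18305 UMIs against 7834 and 8121. Of 30 tested members, 22 were called, where 40.8% of 11826 genes were: 17 higher (21.2% of all genes) and 5 lower (19.6%). The members' median was 0.41 and that of all genes -0.01. Fitted differences are relative to TMM scaling, which put them a median of 0.25 above the plain ratio of CPM, and no called member changed direction on plain CPM. Cells thinned to 3000 UMIs kept 12 of the 22 calls, where 1537 of 9485 genes were called. DESeq2 kept 13, where 1555 of 12067 genes were called. With the Hcrt-high cells of the excitatory gate alone, a comparison added after seeing the data, 19 were kept, with Plagl1 at 3.89, Nnat at 2.60, Dlk1 at 1.90, Asb4 at -4.80 and Peg10 at -2.91.

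Plagl1 stood at 476 and 454 CPM in Hcrt-high and 40.8 and 34.1 CPM in other excitatory neurons, a difference of 3.89 ± 0.11 (adjusted p = 1.36e-53). Nnat stood at 2739.6 and 2616 against 496 and 565 CPM (2.59 ± 0.14). Dlk1 stood at 1189.5 and 1311 against 372 and 417 CPM (1.91 ± 0.12). In each of these 3 genes both Hcrt-high values lay above both others by more than 2-fold. Gnas followed with 3684 and 3389 against 1949 and 1832 CPM (1.15 ± 0.14) and Rasgrf1 with 297 and 393 against 214 and 204 CPM (0.97 ± 0.11). The transcripts of Gnas that start from other first exons cannot be separated by 3′ tags. Blcap, beside Nnat, was higher by 0.75 ± 0.10, and Mirg, beside Dlk1, by 0.68 ± 0.11. Meg3 did not go with them: it gave -0.35 ± 0.19 and was not called (adjusted p = 0.141). It was called lower under 5 alternatives, at between -0.42 and -0.35, with DESeq2 among them (-0.37, adjusted p = 0.00435). The call on Mirg was lost with thinned cells (0.50, adjusted p = 0.0990). Ndn (0.68 ± 0.11) and Peg3 (0.51 ± 0.12) were higher as well. The other higher members, Trappc9, Igf2r, Inpp5f, Zim1, Impact, Herc3, Zdbf2 and Grb10, gave between 0.28 and 0.67. Of these, Trappc9, Igf2r, Zim1, Herc3, Zdbf2 and Grb10 lost their call both with thinned cells and with DESeq2. Grb10 lost it under 6 alternatives in all, and was lowest with thinned cells (0.15, adjusted p = 0.630).

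Asb4 and Peg10 were very low in Hcrt-high neurons. Asb4 had 5 and 2 UMIs there, or 4.39 and 1.47 CPM, against 74.5 and 83.5 CPM in the other excitatory neurons (-4.55 ± 0.30, with -3.85 and -5.49 in the single libraries). Peg10 stood at 11.4 and 24.3 against 155 and 172 CPM (-2.91 ± 0.18, with -3.55 and -2.61 in the single libraries). Sgce, whose start lies beside that of Peg10 on the other strand, gave -0.54 ± 0.21 (-0.26 and -0.95 in the single libraries). Copg2 (-0.67 ± 0.16), a coat protein gene, and Ube3a (-0.31 ± 0.12) were the other lower members. Sgce, Copg2 and Ube3a lost their calls with thinned cells and with DESeq2. Thinned cells gave -0.13 for Sgce (adjusted p = 0.874), -0.85 for Copg2 (adjusted p = 0.0993) and -0.40 for Ube3a (adjusted p = 0.0505).

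Pmch-high neurons, defined in the same way by the gene of melanin-concentrating hormone, a feeding peptide, showed a different profile. There were 85 and 61 of them, with median UMIs of 14237 and 12947. Of these, 48 and 35 lay in the excitatory gate, 10 and 9 had both transporters, 26 and 16 neither, and 1 and 1 Slc32a1 alone. They were compared with the same other excitatory neurons as the Hcrt-high cells, so the comparisons are not independent. Of 30 tested members, 20 were called, where 36.3% of 11796 genes were: 5 higher (19.3% of all genes) and 15 lower (16.9%). The members' median was -0.38 and that of all genes -0.03. TMM scaling put the fitted differences a median of 0.26 above the plain ratio of CPM, and again no called member changed direction. Thinned cells kept 15 of the 20 calls, where 998 of 9587 genes were called. DESeq2 kept 14, where 1395 of 12100 genes were called. With the Pmch-high cells of the excitatory gate alone, also added after seeing the data, 18 were kept, with Dlk1 at -3.40, Ndn at 1.33 and Mest at 1.99. Copg2 and Mirg were lost under each of these 3 alternatives.

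The 5 higher members were Mest, Ndn, Nnat, Snrpn and Zdbf2, the last of which was not called with thinned cells (0.40, adjusted p = 0.267) or with DESeq2 (0.42, adjusted p = 0.168). Mest, a hydrolase-like gene known from growing fat tissue, stood at 37.0 and 45.2 against 10.1 and 12.7 CPM (2.11 ± 0.22, adjusted p = 6.95e-09). Ndn stood at 733 and 625 against 357 and 306 CPM (1.30 ± 0.07) and Snrpn at 1825 and 1920.5 against 1437 and 1362 CPM (0.68 ± 0.05). Of their paternally expressed neighbours, Magel2 gave -0.03 ± 0.16 and was not called (adjusted p = 0.906). The maternally expressed Ube3a of the same region was lower (-0.47 ± 0.06), but was not called with thinned cells (-0.21, adjusted p = 0.244). Nnat stood at 961 and 1119 CPM (1.23 ± 0.06), between the other excitatory and the Hcrt-high neurons.

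Dlk1 had opposite positions in the peptide groups. It stood at 28.6 and 60.3 CPM in Pmch-high neurons, a difference of -2.95 ± 0.14 from other excitatory neurons (-3.47 and -2.58 in the single libraries), and at 1189.5 and 1311 CPM in Hcrt-high neurons. Gnas (759 and 699 CPM, -1.11 ± 0.06), Plagl1 (13.3 and 15.1 CPM, -1.16 ± 0.24) and Rasgrf1 (87.2 and 96.1 CPM, -0.93 ± 0.11) were also low in Pmch-high and high in Hcrt-high neurons. The call on Plagl1 was lost with DESeq2 (adjusted p = 0.129). Asb4 (-3.53 ± 0.25, with -3.88 and -3.24 in the single libraries) and Peg10 (-2.29 ± 0.15, with -2.07 and -2.71) were low here too, at 4.18 and 7.53 and 31.4 and 22.6 CPM. The Peg3 region was lower in part: Usp29 fell by 0.76 and Zim1 by 0.75, while Peg3 gave -0.14 ± 0.06 and was not called (adjusted p = 0.0548), though it was without the filter on low counts (-0.19) and without doublet removal (-0.14). The call on Zim1 was lost with DESeq2 (-0.77, adjusted p = 0.333) and with thinned cells, where it stood at -0.03 (adjusted p = 0.981). Meg3 (-0.54 ± 0.05) and Mirg (-0.34 ± 0.11) were lower. The remaining lower members, Nap1l5, Zrsr1, Impact and Copg2, gave between -0.78 and -0.49. The call on Zrsr1 was lost with DESeq2 (-0.69, adjusted p = 0.185).

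**Figure D3:**
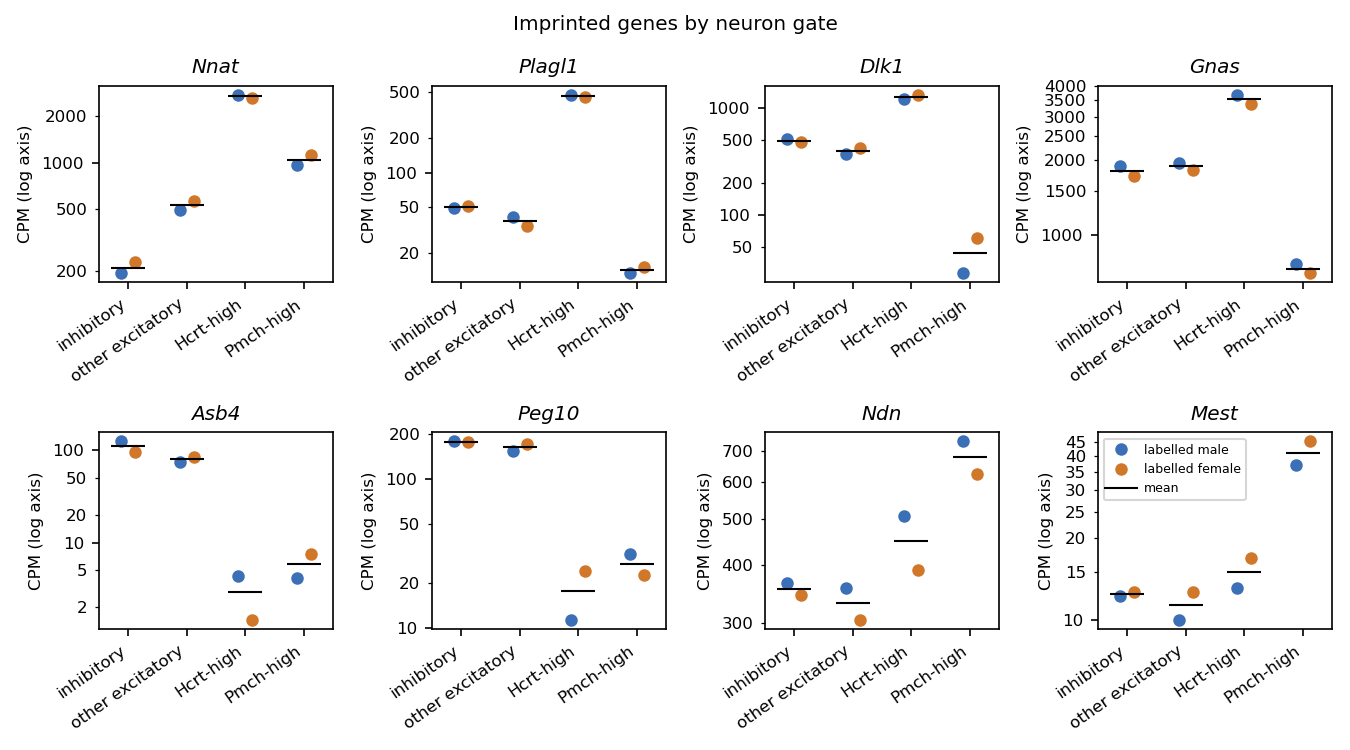
Level of 8 imprinted genes in inhibitory, other excitatory, Hcrt-high and Pmch-high neurons, in CPM on a log axis; each point is 1 library and the bar is their mean. Nnat, Plagl1, Dlk1 and Gnas are highest in Hcrt-high neurons, Ndn and Mest in Pmch-high neurons, and Asb4 and Peg10 are low in both peptide groups.

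Neuron subtypes were sub-clusters of each gate, named after the 2 genes that led them, none of them a member. They came from the same cells, so their tests describe how the members were spread over these groups. Any difference was called for 24 of 30 tested members across 18 inhibitory subtypes (46.0% of 8620 genes) and for 26 of 30 across 19 excitatory subtypes (63.2% of 8125 genes). Commd1, Igf2r, Sgce and Zrsr1 were called in neither gate, though at resolution 0.5 Commd1 (adjusted p = 0.0183) and Igf2r (adjusted p = 0.0392) were called across excitatory subtypes. Ranks below are by the mean of the libraries and cover the tested subtypes alone.

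**Figure D4:**
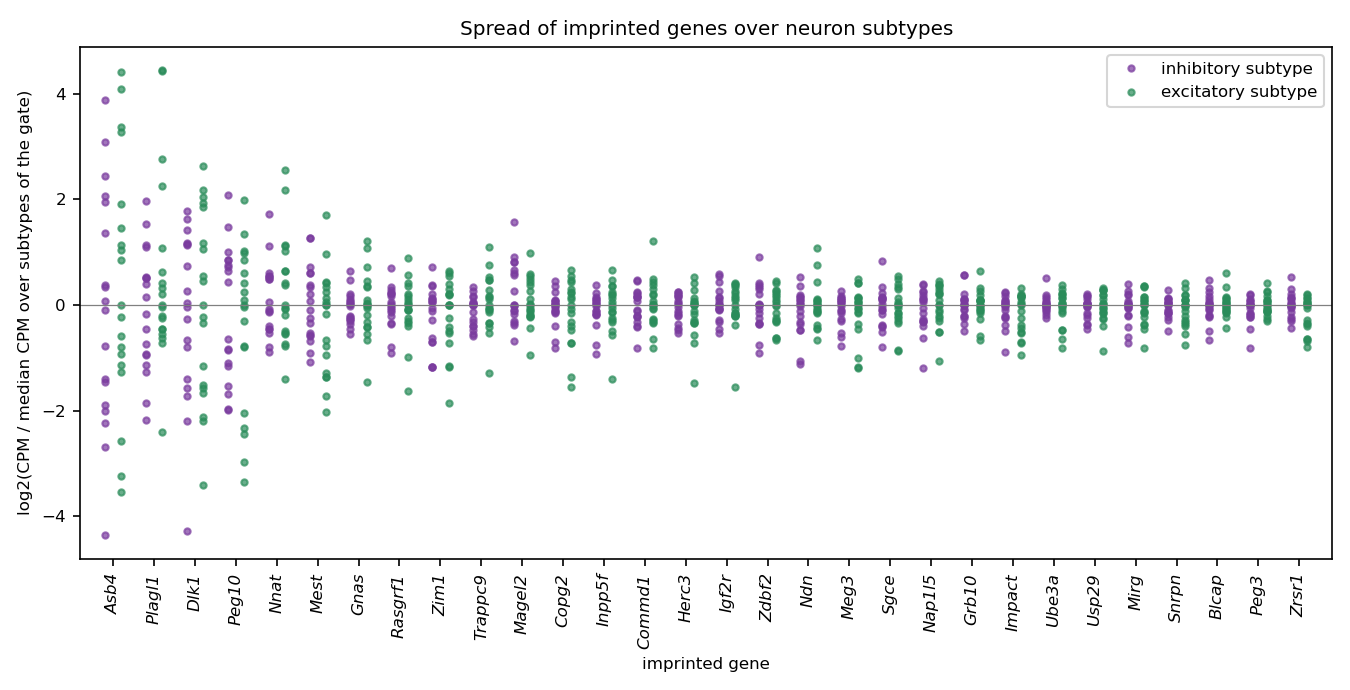
Level of 30 imprinted genes in 18 inhibitory and 19 excitatory subtypes, as log2 of the CPM over the median of the subtypes of that gate; each point is the mean of 2 libraries for 1 subtype. Asb4, Plagl1, Dlk1, Peg10 and Nnat spread widely, while Peg3, Blcap, Snrpn and Usp29 stay within about 1 unit.

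Asb4 spread most widely. It reached 765 and 578 CPM in the inhibitory Cartpt/Nts subtype and 439.9 and 439.6 CPM in the excitatory Timp3/Sox5 subtype, and had 1 and 0 UMIs in inhibitory Bhlhe22/Lhx6 neurons. Peg10 was highest in the same pair of subtypes, at 608 and 641 and 483 and 484 CPM, and lowest in the Pmch/Cartpt subtype at 16.6 and 7.28 CPM. The Cartpt/Nts subtype, 31 cells in each library, was also the inhibitory subtype with most Gnas (2959 and 2666 CPM), Ndn (503 and 554 CPM), Magel2 (157 and 103 CPM) and Zdbf2 (253 and 265 CPM). It had the least Meg3 (9626 and 9947 CPM), Mirg, Snrpn and Ube3a. In all, 9 of 30 members were higher and 6 lower there than in the mean of the other inhibitory subtypes. Of 8620 genes, 1013 were called higher and 638 lower (19.2% in all).

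Dlk1 ranged from 9.35 and 29.1 CPM in the inhibitory Tac2/Hcrt subtype to 1250.1 and 1329 CPM in Ptk2b/Ppp1r1b neurons. The Tac2/Hcrt subtype, with 35 and 51 cells, is not a group of Hcrt-high neurons, of which only 3 lay in the whole inhibitory gate. The Ptk2b/Ppp1r1b subtype had the least Nap1l5 (1418 and 1092 CPM), Impact (735 and 613 CPM), Peg3 (617 and 713 CPM), Rasgrf1, Grb10 and Blcap of all inhibitory subtypes. It had 7 of 30 members higher and 7 lower, where 845 of 8620 genes were called higher and 549 lower (16.2% in all). Nnat was highest among inhibitory subtypes in Slc18a2/Th neurons, which carry genes of monoamine cells, at 541 and 665 CPM. Among tested inhibitory subtypes Plagl1 was highest in Cadps2/Syndig1l neurons, at 157 and 157 CPM.

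In the excitatory gate, Hcrt/Pcsk1 neurons had the most Dlk1 (1583 and 1575 CPM), Nnat (3139.5 and 2927 CPM), Gnas (4683 and 3808 CPM), Blcap, Rasgrf1 and Inpp5f. All 36 of these cells were Hcrt-high, as were 86 of the 111 C1ql3/Lhx9 cells, so both repeat the Hcrt-high result. Plagl1 stood at 421 and 447 CPM in the first and 451 and 408 CPM in the second, with a median of 19.9 CPM over the excitatory subtypes. The 61 Pmch/Cartpt cells, all Pmch-high, had the most Snrpn (1868 and 1937 CPM), Ndn (765 and 712 CPM) and Mest. They had the least Dlk1 (21.0 and 27.3 CPM), Gnas (741 and 604 CPM), Nap1l5, Impact, Peg3 and Usp29. Meg3 was highest in neurons led by Foxb1, a gene of the mammillary region, at 22446 and 26419.8 CPM, and lowest in Hcrt/Pcsk1 neurons, at 7336 and 7879.8 CPM. In the library labelled male alone, Zic1/Zic4 neurons had more Meg3 (22783 CPM) and Grp/Fam19a4 neurons less (6339 CPM). Outside the peptide groups, Timp3/Sox5 neurons joined high Asb4 and Peg10 with high Gnas (4034 and 3746 CPM). They had 10 of 30 members higher and 2 lower, where 641 of 8125 genes were called higher and 446 lower (13.4% in all).

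Patterns over all 37 subtypes were compared between 29 members by Spearman's rho, as a description only, since the subtypes share libraries and differ in depth. Asb4 and Peg10 were most alike (0.87). They lie on chromosome 6 at 5383386-5433022 and 4747306-4760517, and are expressed from opposite parental alleles. Next came Nap1l5 and Impact (0.80), on different chromosomes, Peg3 and Impact (0.71), and Dlk1 and Plagl1 (0.64). Among opposed pairs were Snrpn and Gnas (-0.68) and Ndn and Nap1l5 (-0.60). Neighbours at 1 locus often did not go together: Peg3 and Usp29, whose starts lie 146 bases apart, gave 0.08, Meg3 and Dlk1 -0.13, and Meg3 and Mirg 0.18. The 2 libraries agreed less well for some of these genes. Over inhibitory and excitatory subtypes rho between libraries was 0.72 and 0.44 for Usp29 and 0.63 and 0.32 for Mirg. It was 0.88 or more for Meg3 and Dlk1. How far this lowers the values of the pairs was not tested. Nnat and Blcap gave 0.51. The median was 0.13 over 18 pairs at the same locus and 0.03 over 388 other pairs.

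**Figure D5:**
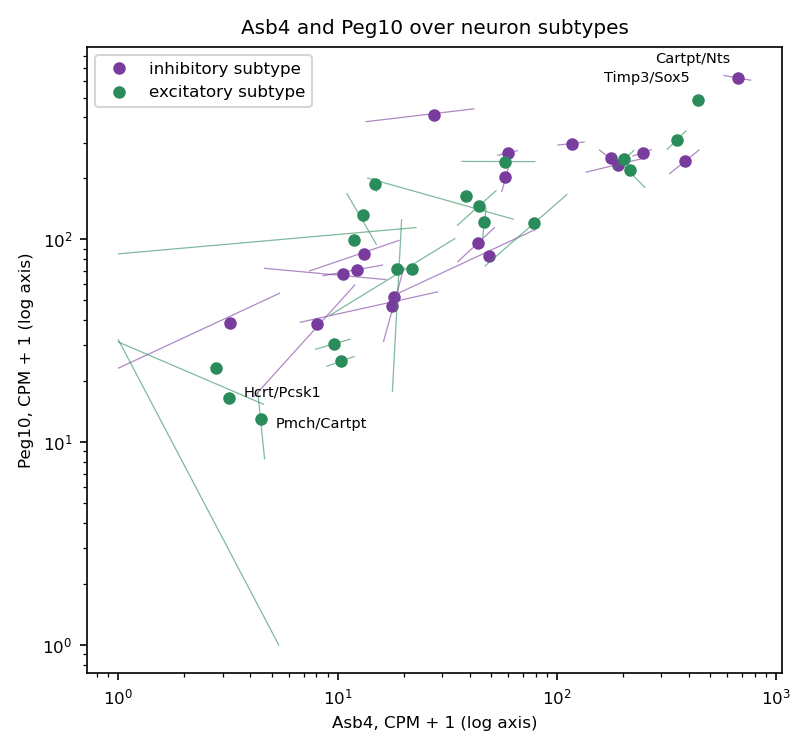
Asb4 against Peg10 in 37 neuron subtypes, both as CPM + 1 on log axes; points are the mean of 2 libraries and thin lines join the libraries. Subtypes with much Asb4 have much Peg10, from Pmch/Cartpt and Hcrt/Pcsk1 at the lower left to Timp3/Sox5 and Cartpt/Nts at the upper right.

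Overlap between genes limits some of these values. Nnat lies within Blcap, Nap1l5 within Herc3, Zrsr1 within Commd1, and the ends of Mest and Copg2 overlap, each on opposite strands. Snrpn overlaps Snurf on the same strand. The use of strand in counting is not given in the sources used here, so reads of such partners may not be told apart.

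A further 38 imprinted genes were listed by name beside the members. Their counts are read against the shares of all genes called higher and lower, which were 29.1% and 30.8% between classes, 10.5% and 12.5% between inhibitory and excitatory neurons, 21.2% and 19.6% for Hcrt-high and 19.3% and 16.9% for Pmch-high neurons. Of those tested, 6 of 13 were higher and 2 lower in neurons than in the other classes, led by Calcr, the calcitonin receptor gene, with 679 and 975 UMIs in neuron-like cells and at most 5 in any library of another class, and by Pon2 at -3.40 ± 0.40. Between inhibitory and excitatory neurons 3 of 21 were higher and 4 lower (Ddc 0.79 ± 0.10 and Qpct -0.74 ± 0.09 at the ends). In Hcrt-high neurons 6 of 17 were higher and 5 lower. Rtl1, a retrotransposon-derived gene between Meg3 and Mirg, gave 2.98 ± 0.26, and Calcr had 3 and 8 UMIs against 322 and 472 in the other excitatory neurons (-3.82 ± 0.28). Pmch-high neurons had 3 of 18 up and 6 down, with Qpct at 1.67 ± 0.13 and Calcr at 1 and 3 UMIs. Of 22 listed genes for factors that keep imprints or act on chromatin, 16 were tested between classes. Here 3 were higher in neurons, led by Zfp57, a zinc finger gene that protects imprints, and 7 lower, led by Tet3 (-0.98 ± 0.16). Zfp57 had 399 and 540 UMIs of 17285857 and 20229216 in neuron-like cells. In oligodendrocyte precursor-like cells it had 4 and 14 of 188520 and 271129. That share was close to the neuronal one in the library labelled male and above it in the other. Of 17 tested between inhibitory and excitatory neurons, 2 were called, both higher, with Dnmt1 at 0.30 ± 0.10. In Hcrt-high neurons 1 of 16 was higher (Rlim, 0.33 ± 0.13) and 6 were lower (Tet1, -0.83 ± 0.31). For Pmch-high cells, 1 of 16 was up (Arid4a, 0.49 ± 0.14) and 8 were lower (Tet2, -0.95 ± 0.23).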

How the data were processed

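Both libraries were deposited by the authors as matrices of raw UMI counts, genes by barcodes, without normalization. Per the submitters' processing notes, Cell Ranger 2.2.0 and GRCm38/mm10 were used. How cells were called, which annotation release served and whether strand was used is not given in the sources. The members and all lists were chosen with earlier results of these data known.

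Cells with at least 500 genes and at most 20% mitochondrial UMIs were kept (163 barcodes removed from each library). The highest Scrublet scores were removed as doublets at 0.8% per 1000 barcodes (90 and 113 cells). Cells were clustered with scanpy 1.11.5 (2000 variable genes without the members, 30 components, 15 neighbours, Leiden resolution 1). Clusters were named "-like" from marker lists. Neurons with a UMI of Slc32a1 but not of Slc17a6 were called inhibitory, those with Slc17a6 alone excitatory. Subtypes were named by the 2 genes of highest fold found in at least 40% of their cells.

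UMIs were summed per library and group of at least 10 cells. They were tested with edgeR 4.0.16 (R 4.3.3): filterByExpr, TMM, quasi-likelihood test, library as a block, 2-sided, Benjamini-Hochberg adjustment over all genes tested. SE is the size of the log2 difference over the square root of F. The scripts were tested on simulated counts with known changes. The block rests on the design, since both groups of a comparison come from the same pools of animals. Every member was to be described where it reached 20 CPM in some group, and statistics given for called members of 1.5-fold or more with their neighbours. Library totals and intervals cover counting error only. Gene positions are from GENCODE M21, which held 28339 of the 28692 identifiers (98.8%).

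Alternatives were DESeq2 1.42.0, no filter, no block, cells thinned to 3000 UMIs, Meg3 and Malat1 left out, no doublet removal, each library alone, other limits for the gates, a stricter cell filter, members among the clustering genes, and resolution 0.5. Peptide neurons of the excitatory gate alone were added as an alternative after seeing the data.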

Additional observations from a re-analysis of the deposited data

How the results depend on the processing

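No member called in a comparison was called the other way under an alternative, except Plagl1 between inhibitory and excitatory neurons. Without Hcrt-high and Pmch-high cells Plagl1 stood at 0.44, Ndn at 0.11 and Ube3a at -0.00, the last 2 not called. Cells thinned to 3000 UMIs put Ndn at 0.01 there and Mirg at 0.24 in Pmch-high neurons, neither called. A member that was not called and changed sign was counted as unchanged. The comparisons of neurons by gate have 1 residual degree of freedom, and each fit shares its spread over genes. Both groups of a comparison come from the same pools, so the library was a block. Without this replicate block, inhibitory against excitatory neurons gave 4 called members in place of 13 and 941 genes in place of 3034, and no other count of calls moved by over 1.5 times. That contrast gave 8 members and 1085 genes with thinned cells, 8 and 1611 without the peptide groups, and 4 and 543 with DESeq2. Hcrt-high neurons gave 12 members and 1537 genes with thinned cells, and 14 and 1555 with DESeq2, in place of 22 and 4822. Over all genes, Pmch-high neurons gave 998 with thinned cells and 1395 with DESeq2 in place of 4281. Thinned cells gave 3938 genes in place of 6343 between classes, 1795 in place of 3966 across inhibitory subtypes, and 1894 in place of 5137 across excitatory subtypes, where 16 of 24 tested members were called in place of 26 of 30. Thinned cells test fewer genes on fewer UMIs, and too few oligodendrocyte precursor-like cells were left for that class. For the other alternatives the cause was not tested. Peptide neurons of the excitatory gate alone, an alternative chosen after seeing the data, kept 19 of 22 calls for Hcrt-high and 18 of 20 for Pmch-high cells. With 1 library left out, no test is possible, so single-library differences are given as values. They are differences of log2 CPM, with TMM scaling over unfiltered genes and 0.5 added to counts, and not fitted differences.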

Other observations

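Neurons that fell in neither gate were left out of the comparison of inhibitory with excitatory neurons and of the subtypes. They stayed among the neuron-like cells, and some were Hcrt-high or Pmch-high. The 112 and 147 neurons with UMIs of both transporters stood at 714 and 617 CPM for Nnat and at 55.0 and 62.0 CPM for Asb4. The 232 and 224 neurons with neither stood at 633 and 583 CPM for Nnat and at 111 and 84.2 CPM for Asb4. All of these Nnat values lay between those of inhibitory and excitatory neurons. Meg3 differed little among these groups, at 15002 and 15456 CPM with both transporters and 15791 and 16725 CPM with neither.

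A pair of small inhibitory subtypes was not tested. Gpr50/Pgr15l neurons, with 2 and 11 cells, stood at 357 and 332 CPM for Plagl1 and at 357 and 415 CPM for Asb4, with 3 UMIs of each gene in the library labelled male. C1ql2/Zic1 neurons had 5 and 17 cells.

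Between the libraries, the level in neuron-like cells of the library labelled male was 0.795 times that of the other for Zim1 (95% interval 0.716 to 0.881), 0.870 times for Mirg and 0.914 times for Meg3. It was 1.17 times for Ndn (1.13 to 1.21) and 1.13 times for Asb4. Asb4 went opposite ways by gate, with 1.30 times in inhibitory (1.19 to 1.43) and 0.838 times in excitatory neurons (0.730 to 0.962). In neuron-like cells the largest difference among members with UMIs in both libraries was that of Igf2, 0.293 times (0.146 to 0.545), from 13 and 52 UMIs. Other classes had larger gaps for some members. Meg3 in endothelial-like cells stood at 3.05 times (2.70 to 3.47), from 943 and 345 UMIs. The intervals cover counting error only, and with 1 library per label there is no test of sex or litter.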
